A study of Mus musculus with 6 samples.

Results

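The 40 genes described here mark the 2 parts of the cell cycle in which chromosomes are copied and separated: 20 S-phase genes and 20 G2 and M genes, chosen by name out of 32285 genes in the count tables, all 40 of which were found there. They were followed in single cells of the mouse jejunal epithelium, the lining of the middle small intestine, in 6 libraries. Each library held cells pooled from male wildtype C57BL/6J mice of about 30 weeks, which had 16 weeks of diet before surgery and returned to it afterwards. The mice were taken after an overnight fast, 5 weeks after surgery. The groups were low-fat diet with sham surgery (LFD sham, 3 mice pooled), high-fat diet with sham surgery (HFD sham, 3 mice pooled) and high-fat diet with vertical sleeve gastrectomy, a removal of most of the stomach that leaves a tube (HFD VSG, 2 mice pooled). Each pool gave a library labelled crypts and a library labelled villi, parted by scraping in EDTA and a cell strainer. Every condition thus rested on 1 pool, and differences between diets or surgeries have no replicate check.

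The intestinal epithelium is renewed from stem cells at the base of the crypts, whose daughters divide a few more times as they move up before they stop and mature on the villus. The MCM helicase is loaded at origins by licensing factors before S phase and switched on in it by kinases, DNA is copied around the PCNA clamp, and enzymes such as thymidylate synthase and ribonucleotide reductase supply the nucleotides. In G2 and M, cyclin B and CDK1 drive entry into mitosis, kinesins and aurora kinases build the spindle, and the anaphase-promoting complex with CDC20 and UBE2C ends it. E2F factors are known for switching on many S-phase genes, and CHR elements with CCAAT boxes are known from promoters of many G2 and M genes.

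The promoters are shown because members of one phase are grouped here by phase and the data below sort them by phase. RefSeq promoter windows on GRCm38.p6, from 250 bases before to 50 bases after the start, existed for 36 of the 40 members, 18 of each phase. A member counted when any of its windows matched, and Mcm7, Fen1 and Uhrf1 had 2 windows each. The shares of all windows beside these counts are of single windows. The E2F forms TTTCCCGC or TTTGGCGC, searched on both strands, were found in 6 of 18 S-phase members (Cdc6, Hells, Mcm3, Mcm5, Mcm6 and Mcm7) and in 0 of 18 G2 and M members, against 1.56% of all 32851 windows. The CHR letters TTTGAA were found in 12 of 18 G2 and M members and 3 of 18 S-phase members, against 17.9% of all windows. CCAAT was found in 15 of 18 G2 and M members and 12 of 18 S-phase members, against 37.4%. Matches of CCAAT on opposite strands can overlap, as in Ube2c, and a match describes the sequence and no bound factor. The 200 bases before the start are printed 5′ to 3′ on the gene's strand, with matches to any of the 3 motifs, on either strand, in capitals. Mcm6 (chr1:128359706-128359905, minus strand), a subunit of the MCM helicase, and Hells (chr19:38930790-38930989, plus strand), a chromatin remodeller, show the E2F forms.
Mcm6: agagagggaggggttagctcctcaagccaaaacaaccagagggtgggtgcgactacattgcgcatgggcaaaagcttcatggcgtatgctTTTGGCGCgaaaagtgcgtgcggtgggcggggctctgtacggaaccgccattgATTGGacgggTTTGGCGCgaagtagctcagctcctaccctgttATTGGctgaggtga
Hells: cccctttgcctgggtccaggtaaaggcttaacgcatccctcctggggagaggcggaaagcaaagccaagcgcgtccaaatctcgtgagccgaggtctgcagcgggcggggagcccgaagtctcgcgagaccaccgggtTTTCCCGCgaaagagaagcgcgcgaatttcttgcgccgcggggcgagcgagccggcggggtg
Mki67 (chr7:135716380-135716579, minus strand), the Ki-67 coat of mitotic chromosomes, Top2a (chr11:99024190-99024389, minus strand), the topoisomerase that untangles sister chromosomes, and Ube2c (chr2:164769729-164769928, plus strand), the ubiquitin-conjugating enzyme of the anaphase-promoting complex, show the CHR letters and the CCAAT boxes.
Mki67: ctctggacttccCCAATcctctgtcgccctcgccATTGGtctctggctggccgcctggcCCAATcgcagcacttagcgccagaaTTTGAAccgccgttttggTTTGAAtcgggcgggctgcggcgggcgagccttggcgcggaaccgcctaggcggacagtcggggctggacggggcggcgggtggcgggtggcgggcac
Top2a: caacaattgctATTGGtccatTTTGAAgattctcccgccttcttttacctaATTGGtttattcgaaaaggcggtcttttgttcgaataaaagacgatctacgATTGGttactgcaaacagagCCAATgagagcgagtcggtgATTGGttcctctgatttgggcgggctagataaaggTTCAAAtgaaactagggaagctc
Ube2c: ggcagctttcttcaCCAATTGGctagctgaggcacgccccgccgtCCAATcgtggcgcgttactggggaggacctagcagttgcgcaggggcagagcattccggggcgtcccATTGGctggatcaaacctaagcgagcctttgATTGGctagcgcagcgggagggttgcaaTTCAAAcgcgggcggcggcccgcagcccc
Mki67 and Top2a were also the members with the highest levels in the progenitor cells described below.

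The files held 60522766 to 155522445 UMIs (unique molecules counted) in the called barcodes of each library, and 2922 to 4650 cells per library were kept. The libraries differed in depth, with a median of 8612 to 30318.5 UMIs per kept cell and the highest median in villus-labelled HFD VSG. Pairs of libraries shared 17 to 43 called barcodes. Cells were clustered without the 40 members or other cell cycle and histone genes. A cluster of 1624 cells held 11 of 11 stem markers and is called stem-like. A cluster of 2065 cells held 12 of 12 early progenitor markers and is called early progenitor-like. The 3689 cells of both are called the progenitor cells. The stem-like cluster also held 12 of 12 early progenitor markers, so that these markers do not part it from the early progenitor-like cluster. The latter did not hold enough stem markers to take the stem class. Enterocyte-like clusters of 2552 and 164 cells held 8 and 7 of the 12 early progenitor markers. Of 14 further markers of cycling progenitors, which took no part in the clustering, 14 counted in the stem-like and 12 in the early progenitor-like cluster, and Ccnb2, Cdkn3 and Cdca3 were among the 10 leading genes of the latter. Cycling markers were not confined to these clusters, with 10 of 14 in the goblet-like and in the tuft-like and 9 in the immune-like cluster. The stem-like cluster was led not only by stem cell genes such as Lgr5, Ascl2 and Olfm4 but also by Hist1h2af, Shcbp1, Asf1b, Ncaph and Exo1, genes of dividing cells, so that it holds cycling cells beside stem cells. Epcam and Vil1, which mark the epithelium, had 2002 to 2904 CPM and 479.8 to 1595 CPM in epithelial cells. The tissue labels did not sort these cells as their names say. Progenitor cells made up 5.02%, 7.35% and 11.6% of epithelial cells in the libraries labelled crypts (LFD sham, HFD sham and HFD VSG, in that order here and below), and 21.4%, 14.2% and 38.4% in the libraries labelled villi. The 4441 cells of clusters that took no class name count as epithelial here (12.7% to 28.7% of a library's epithelial cells), among them a cluster of 2373 cells with Lars2, a gene often high in damaged droplets, among its 10 leading genes and one of 633 cells with Igkc, Cd52 and Ptprc, genes of immune cells, at its head. In each pool the library labelled villi thus held the larger share of these crypt cells.

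Of the 2 progenitor classes and the mature ones, the stem-like cluster held the most of both phases in all 6 libraries. The 20 S-phase members together had 1446, 1079 and 1500.4 CPM (counts per 1e+06 UMIs of the class) in stem-like cells of the crypt-labelled libraries, and 1392, 1525 and 1389 CPM in those of the villus-labelled libraries. The 20 G2 and M members had 3440.2, 3271 and 3051 CPM in the crypt-labelled and 3792, 3489 and 2652 CPM in the villus-labelled libraries. Among stem-like cells the lowest S-phase sum was that of crypt-labelled HFD sham, and the lowest G2 and M sum that of villus-labelled HFD VSG. Clusters built with all variable genes, the members included, parted these cells differently, with 943 stem-like cells at 1242 to 1821 CPM of S-phase and 326 to 713 CPM of G2 and M members, 1113 cycling progenitor-like cells at 901 to 1145 CPM and 4175 to 5298 CPM, and 1697 early progenitor-like cells at 146 to 261 CPM and 49.8 to 259 CPM. How much G2 and M the stem-like and early progenitor-like clusters held thus depended on whether cycling cells were kept apart. UMIs are counted at the 3′ end of each transcript, so that levels need no correction for gene length.

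Early progenitor-like cells, their neighbours on the way to the villus, had lower and more varied levels. Their S-phase sum was 227, 178 and 205 CPM in the crypt-labelled and 519.5, 198 and 334 CPM in the villus-labelled libraries. Their G2 and M sum was 374, 206 and 207 CPM in the crypt-labelled and 1359, 529 and 489 CPM in the villus-labelled libraries. Villus-labelled LFD sham stood highest for both phases. All 40 members had a higher level in stem-like than in early progenitor-like cells in 6 of 6 libraries, which describes the clusters and is not tested. The median log2 difference over libraries ran from 1.20 to 4.73 among S-phase members and from 1.19 to 4.37 among G2 and M members. The smallest were those of Slbp, the histone mRNA binding protein, at 1.20 (0.86 to 1.87 over libraries) and of Cdkn3, a phosphatase of cyclin-dependent kinases, at 1.19 (0.18 to 2.73). The largest were those of Rrm2, a ribonucleotide reductase subunit, at 4.73 (1.95 to 5.30 over the 5 libraries with at least 3 UMIs in both classes) and of Top2a at 4.37 (2.36 to 5.87).

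Goblet-like cells, the mucus-making lineage, held a level above that of early progenitor-like cells in crypt-labelled HFD sham and HFD VSG and villus-labelled HFD sham and under it in the other 3 libraries, in both phases, with 225 to 454 CPM of S-phase and 241 to 1155 CPM of G2 and M members over the 6 libraries. Enterocyte-like cells, which have left the cycle, held 96.5 to 115 CPM of S-phase and 16.4 to 62.8 CPM of G2 and M members. Most of this S-phase sum came from Pcna, at 35.7 to 53.7 CPM, and from Slbp, at 30.6 to 33.8 CPM. Paneth-like cells, the defensin-secreting cells of the crypt base, held 30.7 to 89.8 CPM of S-phase and 2.27 to 61.4 CPM of G2 and M members. Immune-like cells, in the 5 libraries with at least 20 of them, reached 493 to 619 CPM of S-phase members, and their G2 and M sum varied from 40.7 to 788 CPM. Droplets without a cell held 97.1 to 393 CPM of S-phase and 54.0 to 523 CPM of G2 and M members. Set against the free RNA of their own library, both sums of enterocyte-like and of Paneth-like cells were at or under it in every library. Before subtraction, the sums of early progenitor-like and goblet-like cells were under the level of free RNA in villus-labelled HFD VSG (393 CPM for S phase and 523 CPM for G2 and M in free RNA) and above it in the other 5 libraries, and both sums of stem-like cells stood above it in all 6.

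**Figure D1:**
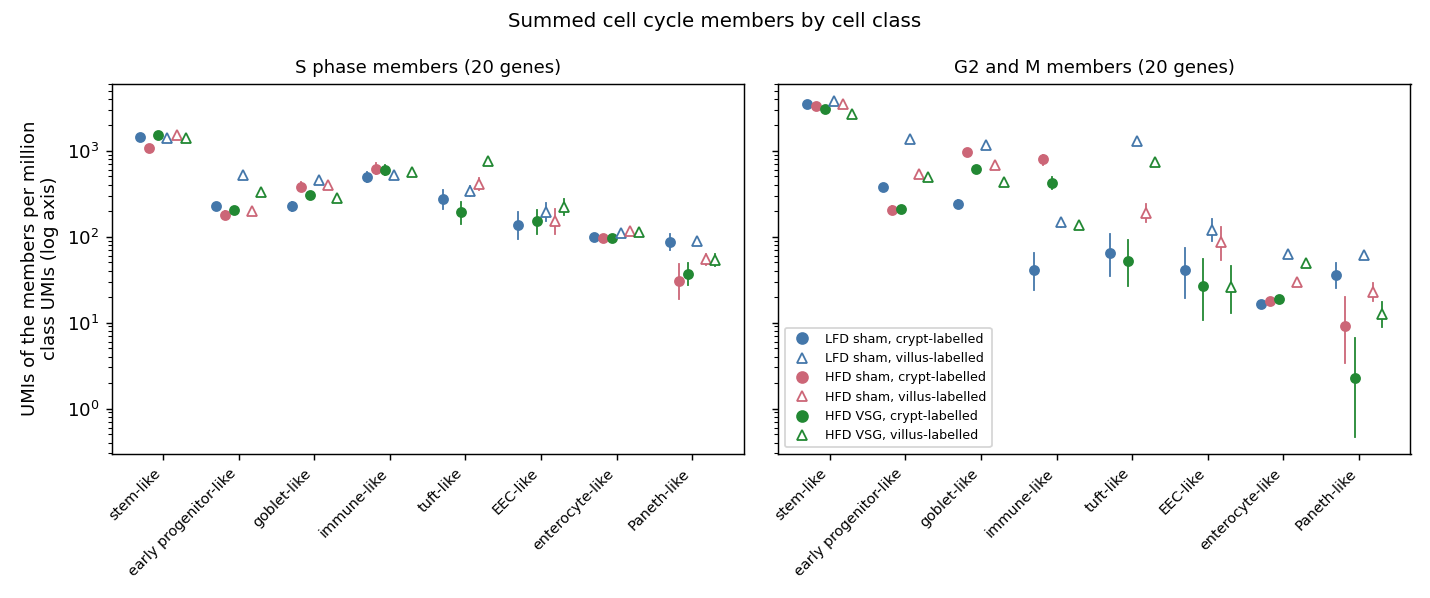
Summed UMIs of the 20 S-phase (left) and 20 G2 and M members (right) in CPM of each cell class, on a log axis. Circles are libraries labelled crypts and triangles libraries labelled villi, coloured by group, with 95% exact Poisson intervals for counting error, for classes of at least 20 cells in a library. Stem-like cells lie at 1079 to 1525 CPM for S phase and 2652 to 3792 CPM for G2 and M, above every other class.

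Progenitor cells held 78.2% to 89.1% of the G2 and M UMIs of epithelial cells in each library, but 36.9% to 79.9% of the S-phase UMIs. Enterocyte-like cells held 10.8% to 48.8% of the S-phase UMIs. The S-phase members taken over the whole epithelium included the Pcna and Slbp of enterocyte-like cells, and the levels below are given within the progenitor cells.

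Transcripts of both phases were also counted per cell. Each cell was thinned to 3000 UMIs, since depth differed between libraries, and cells with fewer were left out. At least 2 S-phase UMIs were then found in 74.7%, 55.4% and 69.1% of stem-like cells of the crypt-labelled and 69.2%, 74.7% and 70.0% of those of the villus-labelled libraries. At least 2 G2 and M UMIs were found in 62.7%, 62.7% and 54.9%, and in 67.0%, 72.7% and 56.0%. The crypt-labelled HFD sham share for S phase had a 95% exact binomial interval of 44.1% to 66.3% (46 of 83 cells), which overlapped the intervals of both other crypt-labelled libraries. Cells with at least 2 UMIs of each phase made up 34.9% to 53.6% of stem-like cells. Without thinning, the medians over libraries were 96.9% for S phase and 85.1% for G2 and M, at median depths of 13436 to 33882 UMIs per cell.

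Early progenitor-like cells with at least 2 UMIs made up 8.94% to 29.6% for S phase and 12.2% to 42.2% for G2 and M, with 0 to 29 cells per library left out as shallower. The highest share in both was that of villus-labelled LFD sham, at 29.6% (24.8% to 34.9%) and 42.2% (36.9% to 47.7%). Unthinned, the medians were 65.1% and 45.2%. Enterocyte-like cells, given for comparison, had 3.68% to 4.31% for S phase and 0.0892% to 1.75% for G2 and M after thinning, and medians of 43.8% and 6.41% without it, at median depths of 13753 to 34683.5 UMIs. Goblet-like cells had 6.93% to 21.4% and 6.93% to 24.8%. Among Paneth-like cells, 5 of 6 libraries had 0 cells with at least 2 G2 and M UMIs, of 28 to 170 cells, and exact upper limits of 2.15% to 12.3%. Unthinned, the Paneth-like share for G2 and M was 0% to 15.2%, with a median of 3.86%.

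**Figure D2:**
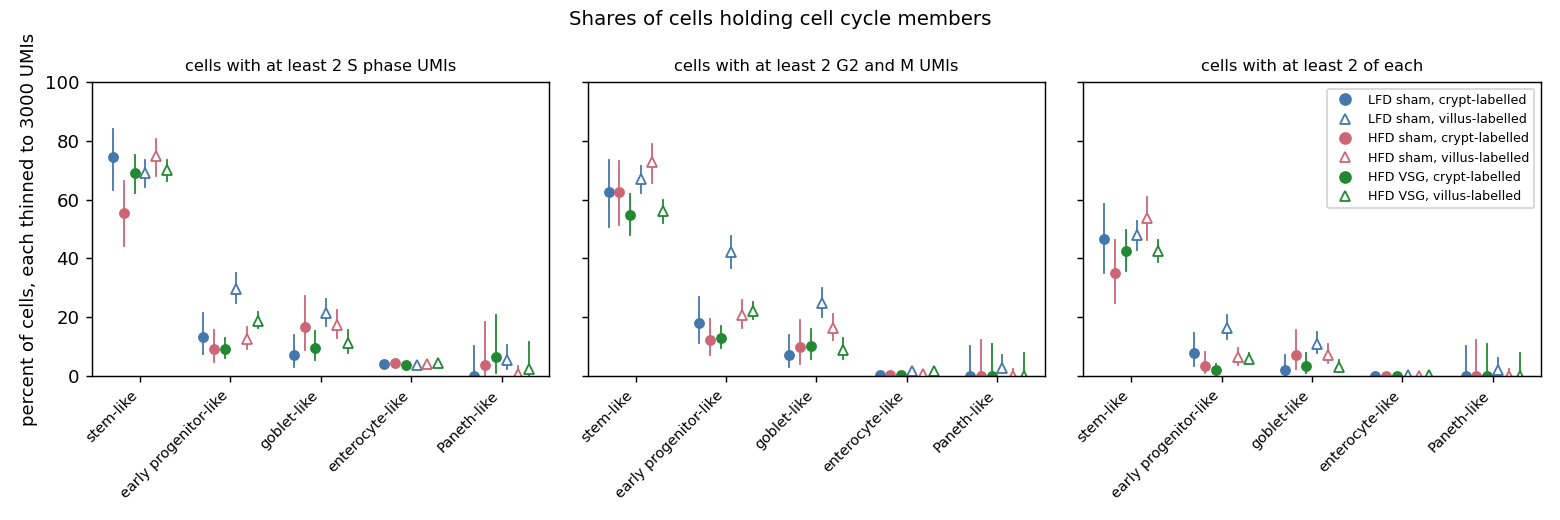
Percent of cells of each class, after thinning to 3000 UMIs, with at least 2 UMIs of S-phase members, of G2 and M members, or of each. Points are libraries (circles crypt-labelled, triangles villus-labelled, coloured by group) with 95% exact binomial intervals for counting error. Stem-like cells lie at 55.4% to 74.7% for S phase, early progenitor-like cells at 8.94% to 29.6% and enterocyte-like cells at 3.68% to 4.31%.

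Within progenitor cells the members parted by phase. Progenitor cells of at least 3000 UMIs were sorted, for each member, by the UMIs of all other members, as S-rich (at least 3 S-phase UMIs in the thinned cell and 3 times the G2 and M UMIs), G2/M-rich (the converse) or low in both (at most 1 of each), so that no member sorted the cells in which it was measured. By all members, S-rich cells made up 10.2% to 16.9% of progenitor cells, G2/M-rich cells 16.1% to 34.2% and cells low in both 26.4% to 55.9%. Levels and ratios in sorted cells are those of the 6 libraries summed, in which libraries with more or deeper cells weigh more. Villus-labelled HFD VSG gave 248 S-rich and 293 G2/M-rich cells, the most of each. A summed ratio can therefore lie outside its range over libraries, as for Mki67, at -2.86 with a range of -2.84 to -2.62. Ranges over libraries leave out libraries with fewer than 3 UMIs of the member in either kind of cell. All 20 G2 and M members were higher in G2/M-rich than in S-rich cells, in 6 of 6 libraries. Of the 20 S-phase members, 18 were higher in S-rich cells, 16 of them in all 6 libraries. As the other members of a phase sorted the cells, these values describe how members go together and carry no test.

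Among S-phase members the split was widest for Ung and Cdc6. Ung, a uracil-DNA glycosylase, had 67.3 CPM in S-rich and 4.64 CPM in G2/M-rich cells, a log2 ratio of 3.86 (2.66 to 4.50 over libraries). Cdc6, which loads the helicase at origins, had 29.6 and 3.81 CPM, a log2 ratio of 2.96 (2.42 to 3.38 over 4 libraries), with 0 UMIs in G2/M-rich cells of the other 2. The MCM helicase subunits had log2 ratios of 2.41 for Mcm6, 2.30 for Mcm3, 2.28 for Mcm2, 2.22 for Mcm4, 1.63 for Mcm5 and 1.21 for Mcm7. The clamp gene Pcna had 221 and 73.0 CPM, a log2 ratio of 1.60 (1.14 to 1.72). Nucleotide-supply genes parted little. Tyms, thymidylate synthase, had 95.8 CPM in S-rich and 109 CPM in G2/M-rich cells, a log2 ratio of -0.19 (-0.60 to 0.29), and was higher in S-rich cells in 3 of 6 libraries. Rrm2 had 31.6 and 31.9 CPM (-0.79 to 0.46 over libraries), and Rrm1, the partner subunit, 87.1 and 77.5 CPM (0.04 to 0.33), higher in S-rich cells in 6 of 6 libraries. These 3 genes had 18.7, 0.735 and 6.90 CPM in cells low in both, so that Tyms, Rrm2 and Rrm1 were high in both kinds of dividing cell. The sorting rule allows some S-phase UMIs in G2/M-rich cells, and its part in these values was not tested.

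The remaining S-phase members lay between these. Hells had a log2 ratio of 2.25, Chaf1b, a subunit of the chromatin assembly factor, 2.00, Uhrf1, which recruits the maintenance methyltransferase to copied DNA, 1.82, and Slbp 1.27. Lower ratios were those of Gins2, a subunit of the replicative helicase, at 0.78, Clspn, the checkpoint adaptor Claspin, at 0.63, Cdc45, another part of that helicase, at 0.58, and Fen1, the flap endonuclease, at 0.41. Clspn was higher in S-rich cells in 5 of 6 libraries and Cdc45 in 4 of 6. Clspn, Cdc45 and Fen1 had 50.1, 16.3 and 50.2 CPM in S-rich and 32.4, 10.9 and 37.7 CPM in G2/M-rich cells. In cells low in both they had 1.20, 0.463 and 5.45 CPM. High levels in both kinds of dividing cell were thus not confined to the nucleotide-supply genes. Ung, by contrast, had 4.64 CPM in G2/M-rich cells and 5.62 CPM in cells low in both.

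Members of G2 and M had a median log2 ratio of -4.11 of S-rich to G2/M-rich cells, and S-phase members one of 1.61. These sizes cannot be compared, since the sorting rule binds the 2 phases differently. Summed over progenitor cells, G2 and M members had 1312 to 2762 CPM and S-phase members 519.9 to 1023 CPM. A G2/M-rich cell may thus hold more S-phase UMIs under the rule than an S-rich cell may hold of G2 and M. Hmmr, a spindle protein, had 2.64 CPM in S-rich and 159 CPM in G2/M-rich cells, a log2 ratio of -5.91 (-6.35 to -4.11 over 3 libraries). Ccnb1, cyclin B1, had 2.64 and 117 CPM, Nusap1, a spindle-binding protein, 6.11 and 237 CPM, and Cenpf, a kinetochore protein, 11.7 and 384 CPM. The weakest ratios were those of Cdk1, the mitotic kinase, at -2.07 (36.4 and 153 CPM), Top2a at -2.25 (145 and 693 CPM), Knstrn, a kinetochore-bound protein, at -2.72 and Mki67 at -2.86 (114 and 827 CPM). Top2a, Mki67 and Cdk1 thus stayed well above their levels in cells low in both, 7.85, 24.0 and 2.42 CPM, in S-rich cells too. They were not alone in this. Aurkb, Nusap1, Bub1 and Tpx2 had 7.44, 6.11, 2.46 and 5.24 CPM in S-rich cells against 0.518, 0.818, 0.354 and 0.845 CPM in cells low in both. By contrast, Ccnb2, Cdca3 and Cdkn3 were lower in S-rich cells, at 10.1, 17.3 and 4.81 CPM against 11.7, 19.9 and 5.64 CPM. G2/M-rich cells had a higher median depth than S-rich cells in 6 of 6 libraries (for example 36794 and 32782 UMIs in villus-labelled HFD VSG), and the part of depth in the ratios was not tested beyond the thinning.

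**Figure D3:**
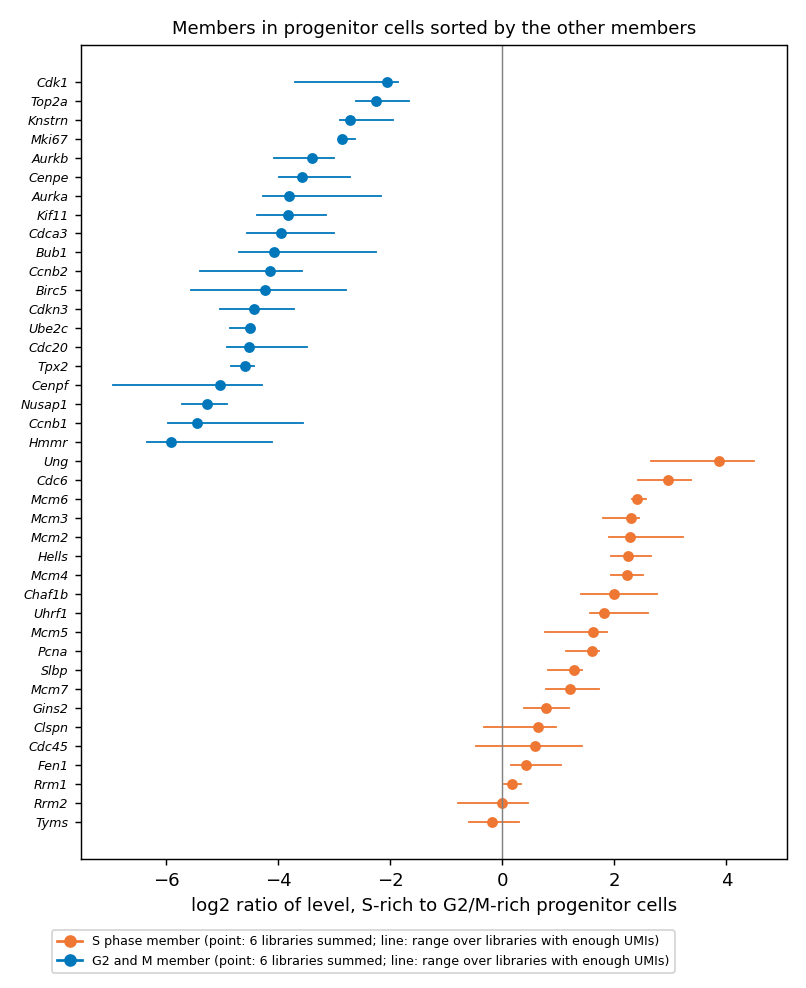
Log2 ratio of each member's level in S-rich to that in G2/M-rich progenitor cells, sorted by the other members. Points are the 6 libraries summed and lines the range over libraries with at least 3 UMIs of the member in both kinds of cell. G2 and M members (blue) lie at -5.91 to -2.07 and S-phase members (orange) at -0.19 to 3.86, with Tyms, Rrm2 and Rrm1 next to 0.

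In the progenitor cells as 1 class, S-phase members had the level order Pcna, Mcm6, Slbp, Tyms, Hells and Mcm7 at the top. Pcna had 97.1, 79.5 and 96.3 CPM in the crypt-labelled and 116, 94.2 and 109 CPM in the villus-labelled libraries. Mcm6 had 69.0, 47.9 and 57.6 CPM, and 87.6, 60.8 and 67.3 CPM. Slbp had 63.5, 55.7 and 62.6 CPM, and 72.9, 59.1 and 74.8 CPM. In both labels these 3 genes were lowest in HFD sham. Tyms had 55.8, 43.3 and 53.9 CPM, and 80.7, 60.4 and 81.1 CPM. Hells had 63.2, 38.5 and 54.1 CPM, and 80.3, 55.4 and 62.5 CPM. Mcm7 had 63.5, 33.0 and 48.4 CPM, and 77.8, 50.5 and 56.7 CPM. Again HFD sham held the lowest value of each label. The other 14 S-phase members ranged from 2.58 CPM (Cdc45, crypt-labelled HFD sham) to 76.4 CPM (Rrm1, villus-labelled LFD sham).

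Mki67 was the highest G2 and M member, with 379, 300.3 and 265 CPM in the crypt-labelled and 624, 403 and 199 CPM in the villus-labelled libraries. Top2a had 321, 202 and 254 CPM, and 468, 270.4 and 223 CPM. Ube2c had 126, 111 and 97.5 CPM, and 209, 134 and 183 CPM. LFD sham had the highest value of each of these 3 genes in both labels, and the place of HFD VSG varied by gene. Cenpf had 128, 93.9 and 95.7 CPM, and 222, 141 and 85.9 CPM. Birc5, the chromosomal passenger protein survivin, had 95.7, 96.7 and 75.7 CPM, and 154, 93.3 and 128 CPM. Cenpe, a kinetochore kinesin, had 96.3, 83.5 and 68.5 CPM, and 164, 87.1 and 61.3 CPM. Mki67, Top2a, Cenpf and Cenpe were lowest in HFD VSG of the villus label, whereas Birc5 and Ube2c were lowest there in HFD sham. The other 14 G2 and M members ranged from 11.5 CPM (Bub1, a spindle checkpoint kinase, villus-labelled HFD VSG) to 115 CPM (Nusap1, villus-labelled LFD sham).

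HFD sham was set against LFD sham to ask what the diet went with. Both phases had a lower level in progenitor cells of HFD sham in both labels as deposited. Over all epithelial cells, where shares of progenitor cells also differed, the crypt-labelled G2 and M sum was higher in HFD sham, at 179 against 160 CPM. The sums that follow are those of progenitor cells. Ratios here are log2 ratios of CPM scaled to the median gene of the class, with 95% exact intervals that cover counting error only, and a gene is called beyond when its scaled ratio exceeds 0.5 in size at a mean of at least 50 UMIs. The S-phase sum was 519.9 CPM in HFD sham against 757 CPM in LFD sham in the crypt-labelled libraries, a ratio of -0.52 (-0.61 to -0.44), and 721 against 1023 CPM in the villus-labelled libraries, a ratio of -0.47 (-0.51 to -0.42). For G2 and M the sum was 1368 against 1707 CPM, a ratio of -0.30 (-0.36 to -0.25), and 1695 against 2762 CPM, a ratio of -0.66 (-0.69 to -0.64). The median gene lay at -0.02 in crypts and -0.04 in villi before the scaling. The fractions of free RNA that the study's methods state were highest in the HFD sham libraries. With free RNA subtracted at those fractions, the crypt-labelled G2 and M level was 1830 CPM in HFD sham against 1757 CPM in LFD sham, the opposite order, and the scaled ratio -0.10 (-0.15 to -0.04). The S-phase ratio was then -0.37 in crypts, and in villi the ratios were -0.42 and -0.60.

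In the crypt-labelled libraries 10 of the 15 S-phase members with enough UMIs were beyond -0.5 and 0 beyond 0.5, with a median ratio of -0.62, against 5.42% of all 6913 genes beyond -0.5 and 6.99% beyond 0.5. The other 5 members (Gins2, Cdc6, Cdc45, Ung and Chaf1b) had too few UMIs there. The lowest were Mcm3, at 21.5 against 41.8 CPM and -0.94 (-1.36 to -0.53), and Clspn, at 15.5 against 29.9 CPM and -0.93 (-1.43 to -0.45). Of the 20 G2 and M members, 3 were beyond -0.5 (Top2a, Nusap1 and Aurkb, the kinase of the chromosomal passenger complex) and 0 beyond 0.5, with a median of -0.20. Cdc20, the activator of the anaphase-promoting complex, had 43.9 against 35.4 CPM and a ratio of 0.33 (-0.02 to 0.67), and Cdkn3 26.1 against 22.5 CPM and 0.23 (-0.21 to 0.68), both intervals including 0. With free RNA subtracted, 5 S-phase and 0 G2 and M members were beyond -0.5, and with cells thinned to 3000 UMIs 0 and 1. Thinning left fewer members with enough UMIs, so that a low count there does not show a smaller difference. The shares of all genes given here belong to the main setting.

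In the villus-labelled libraries 7 of 20 S-phase and 17 of 20 G2 and M members were beyond -0.5 and 0 beyond 0.5, with medians of -0.48 and -0.66, against 7.02% of all 9782 genes beyond -0.5 and 7.84% beyond 0.5. The lowest were Rrm2, at 17.6 against 35.3 CPM and -0.97 (-1.23 to -0.71), and Cenpe, at 87.1 against 164 CPM and -0.87 (-0.99 to -0.76). The highest were Slbp, at 59.1 against 72.9 CPM and -0.26 (-0.41 to -0.11), and Pcna, at 94.2 against 116 CPM and -0.26 (-0.38 to -0.14). The counts beyond -0.5 were 12 for S phase without the scaling, 3 for S phase with cells thinned to 3000 UMIs, and 11 for S phase and 9 for G2 and M at a limit of 10% mitochondrial UMIs. Thinning again left fewer members with enough UMIs. All 40 members had a lower level in villus-labelled HFD sham than in villus-labelled LFD sham.

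The 2 cell classes behind these sums did not show the same values. In stem-like cells of the villus-labelled libraries the ratio was 0.10 (0.06 to 0.15) for S phase and -0.15 (-0.18 to -0.12) for G2 and M, whereas in early progenitor-like cells it was -1.36 (-1.46 to -1.26) and -1.33 (-1.39 to -1.27), with medians over the members that had enough UMIs of -1.76 and -1.44. In the crypt-labelled libraries stem-like cells had -0.41 (-0.51 to -0.32) for S phase and -0.06 (-0.12 to -0.00) for G2 and M, and early progenitor-like cells -0.37 (-0.57 to -0.17) and -0.89 (-1.06 to -0.72). The G2 and M ratio of the crypt-labelled stem-like cells turned to 0.13 with free RNA subtracted and to 0.16 at a limit of 10% mitochondrial UMIs. In clusters built with all variable genes, which set cycling cells apart, the villus-labelled G2 and M ratio of stem-like cells was 0.29, of opposite sign, and the early progenitor-like ratios were -0.74 for S phase and -0.80 for G2 and M. The crypt-labelled ratios were then -0.29 and 0.059 in stem-like cells, the G2 and M one of opposite sign, and -0.097 and -0.40 in early progenitor-like cells. Stem-like cells made up 54.0% of progenitor cells in villus-labelled LFD sham and 36.7% in villus-labelled HFD sham, against 38.5% and 39.7% in the crypt-labelled libraries, and the part of this difference in the sums was not tested. Enterocyte markers summed to 32853 CPM in progenitor cells of crypt-labelled HFD sham against 24720 CPM in LFD sham, and to 17366 against 11964 CPM in the villus-labelled libraries. Goblet markers summed to 392 against 1115 CPM in crypts and 1442 against 546 CPM in villi. The part of these markers was not tested either. In goblet-like cells the G2 and M ratio was 2.00 (1.82 to 2.19) in the crypt-labelled and -0.76 (-0.82 to -0.69) in the villus-labelled libraries, from 94 and 140 and from 324 and 349 cells.

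HFD VSG was set against HFD sham to ask what the surgery went with. In progenitor cells the S-phase sum was higher in HFD VSG in both labels. The G2 and M sum there was lower in crypts and had no stable sign in villi. Over all epithelial cells, where shares of progenitor cells also differed, the G2 and M sum was higher in HFD VSG. It was 202 against 179 CPM in crypts and 694 against 398 CPM in villi. The ratios of HFD VSG to HFD sham in progenitor cells use the same HFD sham libraries as the ratios to LFD sham. A low HFD sham value thus enters both, with opposite sign. The S-phase sum was 709 against 519.9 CPM in the crypt-labelled libraries, a ratio of 0.38 (0.30 to 0.45), and 829 against 721 CPM in the villus-labelled libraries, a ratio of 0.46 (0.42 to 0.50). The G2 and M sum was 1312 against 1368 CPM, a ratio of -0.13 (-0.18 to -0.08), and 1504 against 1695 CPM, a ratio of 0.08 (0.06 to 0.11). The median gene lay at 0.07 in crypts and -0.26 in villi, and without the scaling the villus-labelled ratios were 0.20 for S phase and -0.17 for G2 and M. The sign of the villus-labelled G2 and M ratio thus depended on the scaling, and the depth of the pair differed, with median depths of 32060.5 and 14905 UMIs per progenitor cell. With cells thinned to 3000 UMIs the S-phase ratio was 0.27 in the villus-labelled libraries. The crypt-labelled G2 and M ratio was -0.33 with free RNA subtracted, -0.33 at a limit of 10% mitochondrial UMIs and -0.24 with thinned cells, and the crypt-labelled S-phase ratio 0.23 with free RNA subtracted.

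In the crypt-labelled libraries 7 of the 18 S-phase members with enough UMIs were beyond 0.5 and 0 beyond -0.5, with a median of 0.41, against 4.77% of all 8469 genes beyond 0.5 and 6.68% beyond -0.5. Cdc6 and Cdc45 had too few UMIs. The highest were Mcm3, at 41.8 against 21.5 CPM and 0.89 (0.53 to 1.26), and Clspn, at 26.3 against 15.5 CPM and 0.69 (0.26 to 1.14). Of the G2 and M members, 3 of 20 were beyond -0.5 and 0 beyond 0.5, with a median of -0.19. These were Cdc20, at 29.2 against 43.9 CPM and -0.66 (-0.95 to -0.37), Aurka, the centrosome kinase aurora A, at 12.2 against 16.9 CPM and -0.54 (-1.01 to -0.06), and Ccnb1 at -0.53. With free RNA subtracted, 2 S-phase members were beyond 0.5 and 7 G2 and M members beyond -0.5.

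In the villus-labelled libraries 7 of 20 S-phase members were beyond 0.5 and 0 beyond -0.5, with a median of 0.44, and 7 G2 and M members were beyond 0.5 and 1 beyond -0.5, with a median of 0.26. Without the scaling 2 S-phase and 3 G2 and M members were beyond 0.5, and at a limit of 10% mitochondrial UMIs 4 and 2. The background was wide there, with 18.8% of all 10698 genes beyond 0.5 and 18.2% beyond -0.5. The G2 and M members were spread over both sides. Cdca3, a trigger of mitotic entry, had 104 against 65.4 CPM and 0.92 (0.80 to 1.04), and Aurkb 30.9 against 19.7 CPM and 0.90 (0.68 to 1.13). Mki67 had 199 against 403 CPM and -0.76 (-0.81 to -0.71), and Cenpf 85.9 against 141 CPM and -0.46 (-0.55 to -0.37). The villus-labelled HFD VSG library thus had a lower level of Mki67 and Cenpf and a higher level of Cdca3 and Aurkb than villus-labelled HFD sham.

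By class, the S-phase ratio in stem-like cells was 0.47 (0.39 to 0.56) in the crypt-labelled and 0.16 (0.12 to 0.20) in the villus-labelled libraries, and in early progenitor-like cells 0.09 (-0.07 to 0.26) and 0.96 (0.87 to 1.05). The G2 and M ratio was -0.11 (-0.16 to -0.06) and -0.10 (-0.13 to -0.07) in stem-like, and -0.10 (-0.26 to 0.06) and 0.10 (0.04 to 0.15) in early progenitor-like cells. In the villus-labelled pair the median gene lay at -0.30 in stem-like and -0.21 in early progenitor-like cells, and without the scaling the S-phase ratio of stem-like cells was -0.13 (1389 against 1525 CPM) and the G2 and M ratio of early progenitor-like cells -0.11 (489 against 529 CPM), both of opposite sign. The S-phase ratio was larger in stem-like cells of one label and in early progenitor-like cells of the other. In clusters built with all variable genes the villus-labelled ratios of stem-like cells were -0.043 for S phase and -0.86 for G2 and M and the S-phase ratio of early progenitor-like cells 0.64, and in crypts the S-phase ratio of stem-like cells was 0.35 and the G2 and M ratio of early progenitor-like cells 0.59, the first and the last of these of opposite sign. Stem-like cells made up 38.3% and 44.9% of progenitor cells in the crypt- and villus-labelled HFD VSG libraries, and enterocyte markers there summed to 20800 and 10238 CPM. Between villus-labelled HFD sham and HFD VSG, Paneth markers in progenitor cells went from 2805 to 741 CPM and goblet markers from 1442 to 311 CPM. Their part in these values was not tested. The balance of G2 and M to S-phase UMIs in progenitor cells was 2.26, 2.63 and 1.85 in the crypt-labelled and 2.70, 2.35 and 1.81 in the villus-labelled libraries, lowest in HFD VSG in both labels.

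**Figure D4:**
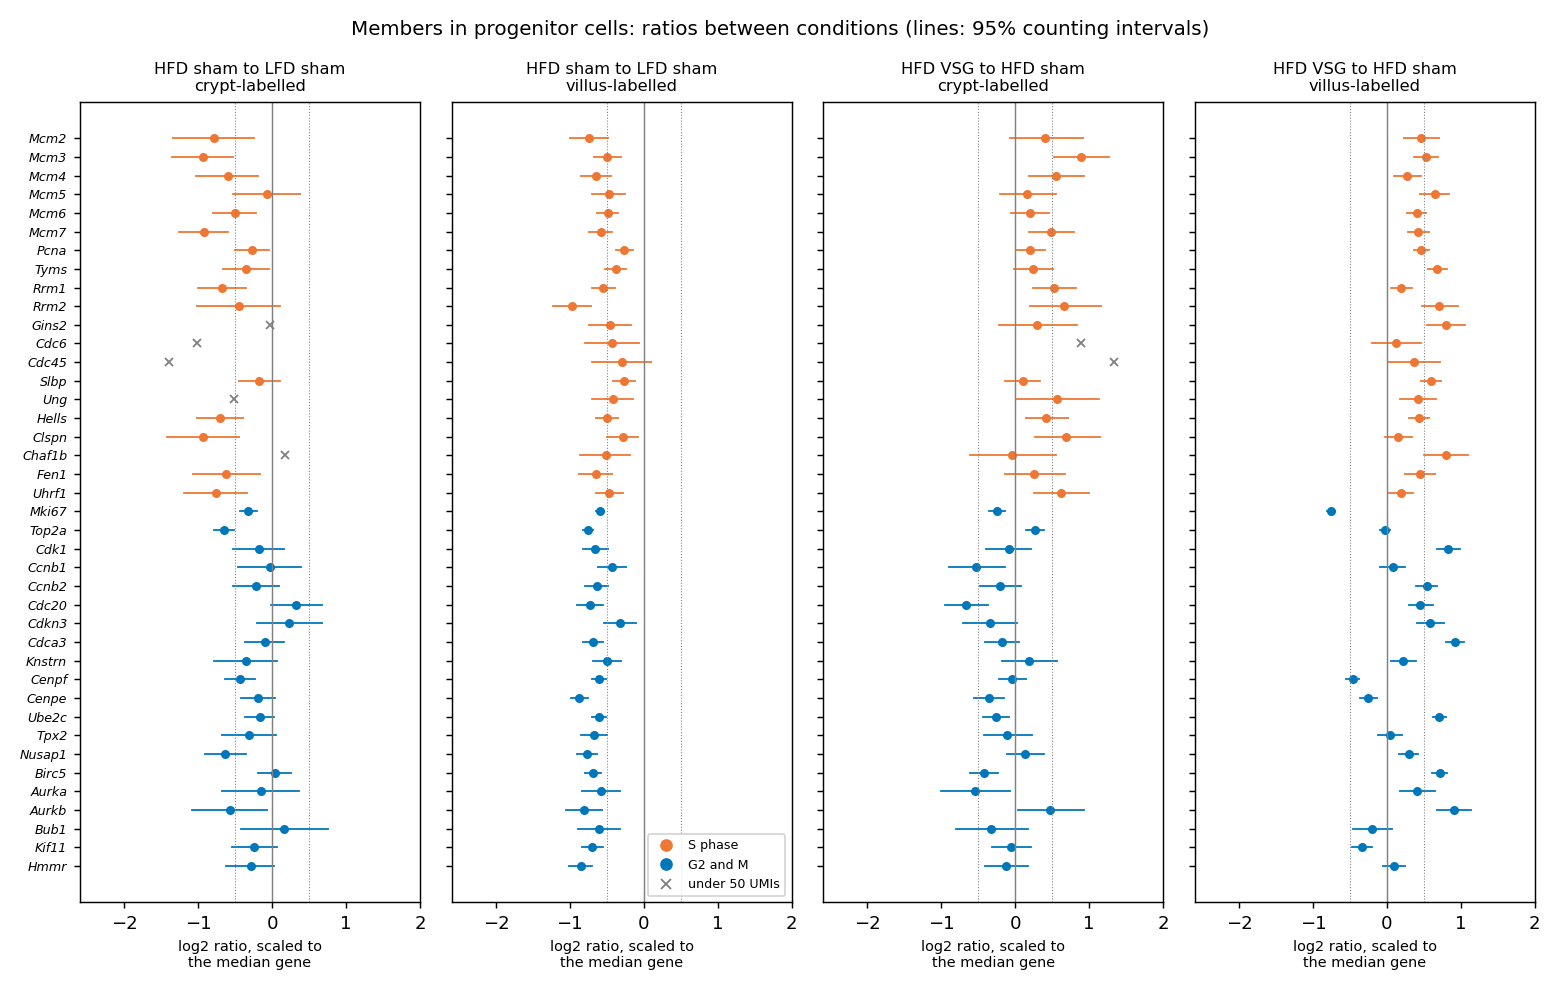
Log2 ratio of each member in progenitor cells between conditions, scaled to the median gene, by label, with 95% exact counting intervals. Dotted lines mark 0.5 in each direction and grey crosses members with a mean under 50 UMIs. S-phase members with enough UMIs lie left of 0 for HFD sham to LFD sham (medians -0.62 and -0.48) and mostly right of 0 for HFD VSG to HFD sham (medians 0.41 and 0.44), and both ratios share the HFD sham libraries.

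Other genes of the cycle were counted in the same way. Of 41 other replication genes, 29 had enough UMIs in the crypt-labelled HFD sham to LFD sham ratio, with 6 beyond -0.5 and 1 beyond 0.5 (median -0.35), and 40 in the villus-labelled one, with 18 beyond -0.5 (median -0.46). The lowest were Lig1, the ligase that joins copied fragments, at -0.91 (35.0 against 66.6 CPM), and Asf1b, a histone chaperone, at -1.12 (9.20 against 20.6 CPM), and the highest Rpa3, a subunit of the single-strand binding complex, at 0.50 and -0.06. Of 48 other mitosis genes, 36 and 48 had enough UMIs, with 4 and 37 beyond -0.5 and 0 beyond 0.5 (medians -0.20 and -0.61). Pbk, a mitotic kinase, was lowest in crypts at -0.89 and Gtse1, a microtubule-bound protein, in villi at -1.56, while Tubb4b, a tubulin, at 0.46 and Pttg1, securin, at 0.03 were highest. Both lists showed more members beyond -0.5 in villi, as did the G2 and M members, whereas the S-phase members showed fewer there. Beside these counts and those of the next lists, 5.42% of all genes in crypts and 7.02% in villi were beyond -0.5, and 6.99% and 7.84% beyond 0.5.

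Of 18 genes that control entry into S phase, 12 and 18 had enough UMIs, with 3 and 7 beyond -0.5 and 0 and 1 beyond 0.5 (medians -0.21 and -0.24). Ccnd1, cyclin D1, had 99.6 against 157 CPM in crypts and a ratio of -0.64, and Cdk2, the S-phase kinase, 12.7 against 22.7 CPM in villi and -0.79. The restraining pocket protein genes were highest, Rbl2 at 0.33 (-0.13 to 0.79) in crypts and Rb1 at 0.69 (0.51 to 0.88) in villi. Of 12 inhibitor and arrest genes, 8 and 10 had enough UMIs, with 2 beyond 0.5 in each label and 0 beyond -0.5 (medians 0.32 and -0.11). Cdkn2b, the inhibitor of cyclin D kinases p15, was highest in both, at 96.8 against 51.3 CPM and 0.93 (0.67 to 1.19) in crypts and 87.2 against 39.8 CPM and 1.17 (1.02 to 1.33) in villi. Its lowest counterparts were Ccng1, cyclin G1, at -0.13 and Cdkn2d, another inhibitor of those kinases, at -0.34, with intervals that included 0. Of 17 genes that are abundant in dividing cells, such as histone variants and tubulins, 4 and 9 were beyond -0.5 and 0 beyond 0.5, from Hmgn2, a nucleosome-binding protein, at -0.59 and H2afx, a histone variant, at -0.74 to H2afv, another one, at 0.37 and 0.08.

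In the ratio of HFD VSG to HFD sham, 6 of 35 and 18 of 41 replication genes were beyond 0.5 and 0 beyond -0.5 (medians 0.29 and 0.42), with Lig1 at 0.71 highest in crypts and Cdt1, a licensing factor, at 1.14 in villi, and with Atad2, a chromatin-bound ATPase, at -0.27 lowest in villi. Of the mitosis genes, 0 of 44 and 10 of 48 were beyond 0.5 and 0 and 2 beyond -0.5 (medians -0.10 and 0.10), from Tubb4b at -0.50 and Ncapd2, a condensin subunit, at -0.58 to Pbk at 0.43 and Cks1b, a subunit of cyclin-dependent kinases, at 1.10. Replication genes as a list had the higher medians, as the S-phase members did. Over all genes 4.77% in crypts and 18.8% in villi were beyond 0.5, and 6.68% and 18.2% beyond -0.5, so that the villus-labelled counts above 0.5 of the mitosis genes and of the control genes were near the background. Of the control genes, 2 of 15 and 3 of 18 were beyond 0.5 and 0 and 2 beyond -0.5 (medians 0.17 and 0.20). Rb1 was lowest in both labels, at -0.38 and -1.03, while E2f2, an activating E2F, at 0.59 and Cdk4, a cyclin D kinase, at 0.93 were highest. Of the inhibitor and arrest genes, 0 of 9 and 3 of 11 were beyond 0.5 and 2 and 1 beyond -0.5 (medians -0.23 and -0.14). Ccng2, cyclin G2, was lowest in both, at -1.11 and -0.73, and Btg2, an antiproliferative gene, at -0.01 and Cdkn1c, the inhibitor p57, at 0.70 (0.02 to 1.46) were highest. Of the 17 genes abundant in dividing cells, 0 and 12 were beyond 0.5 and 0 beyond -0.5, from Tuba1c, a tubulin, at -0.43 and Tmpo, a nuclear lamina protein, at -0.06 to Stmn1, the microtubule regulator stathmin, at 0.49 and H2afx at 1.01.

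The label was the one contrast with replicates, 3 pools that each gave both libraries, and was tested by edgeR's quasi-likelihood test on class sums with the pool as a block and Benjamini-Hochberg adjustment over all genes. In progenitor cells, 5 of 20 S-phase and 5 of 20 G2 and M members were higher in the villus-labelled libraries and 0 lower, against 0.858% of all 11777 genes higher and 5.38% lower. The S-phase members were Gins2, with 12.7 and 20.4 CPM in crypt- and villus-labelled libraries (log2 fold 0.70 ± 0.17 SE, edgeR adjusted p = 0.012), Tyms (51.0 and 74.0 CPM, edgeR adjusted p = 0.0281), Ung (13.4 and 20.1 CPM), Cdc45 (5.43 and 9.54 CPM) and Uhrf1 (30.6 and 44.2 CPM). The G2 and M members were Ccnb1, with 23.5 and 40.0 CPM (0.77 ± 0.16 SE, edgeR adjusted p = 0.00221), Knstrn (27.0 and 40.4 CPM), Cdk1 (37.5 and 57.8 CPM), Ube2c (112 and 175 CPM) and Cdkn3 (23.4 and 34.0 CPM). All 40 members had a positive fold, with medians of 0.46 and 0.47 against 0.03 over all genes. DESeq2 called 0 S-phase and 2 G2 and M members. Without the pool as a block edgeR called 0 members, with 8 and 9 at an unadjusted p under 0.05. The number of calls depended on the pools kept. Without the LFD sham pool 0 and 0 members passed, without HFD sham 2 and 9, and without HFD VSG 15 and 13. A fit without a pool also has fewer libraries. Over these fits the folds of the members named here stayed positive, from 0.33 at the lowest (Cdkn3) to 0.93 at the highest (Ccnb1). The share of stem-like cells among progenitor cells was higher in the villus label in LFD sham and HFD VSG and lower in HFD sham. Enterocyte markers in progenitor cells summed to 24720, 32853 and 20800 CPM in the crypt-labelled and 11964, 17366 and 10238 CPM in the villus-labelled libraries, and Paneth markers to 661, 547 and 493 CPM and to 2928, 2805 and 741 CPM, so that the first were lower and the second higher in the villus label of every pool. The part of these values in the label difference was not tested.

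Tested by class, most members passed in early progenitor-like cells. In them 17 of 20 S-phase and 19 of 20 G2 and M members were higher in the villus-labelled libraries, all but Mcm4, Pcna, Slbp and Bub1, against 4.24% of all 10804 genes higher and 7.03% lower. Top2a had 15.3 and 72.0 CPM (log2 fold 1.98 ± 0.19 SE, edgeR adjusted p = 2.04e-08), Ube2c 19.8 and 76.6 CPM (2.02 ± 0.21 SE, edgeR adjusted p = 4.25e-08) and Mki67 53.7 and 149 CPM (1.14 ± 0.20 SE, edgeR adjusted p = 0.000192). The widest folds were those of low genes, Aurkb with 1.09 and 5.80 CPM (2.85 ± 0.55 SE) and Chaf1b with 0.654 and 4.30 CPM (2.60 ± 0.49 SE). Among S-phase members, Uhrf1 had 3.83 and 14.4 CPM (edgeR adjusted p = 3.59e-05) and Mcm3 6.84 and 17.8 CPM (edgeR adjusted p = 0.00067), whereas Pcna had 55.6 and 62.5 CPM (edgeR adjusted p = 0.745). Leaving out 1 pool gave 6 to 17 S-phase and 15 to 20 G2 and M members, with the fewest without LFD sham (6 and 15) and 10 S-phase members without HFD VSG. Free RNA moved with the label in every pool, with 116, 97.1 and 124 CPM of S-phase members in the crypt-labelled and 281, 172 and 393 CPM in the villus-labelled libraries, and 84.6, 54.0 and 97.8 against 461, 230 and 523 CPM of G2 and M members. With free RNA subtracted, the G2 and M sum of early progenitor-like cells was 383, 259 and 211 CPM in the crypt-labelled and 1402, 582 and 489 CPM in the villus-labelled libraries. The S-phase sum was 230, 206 and 208 against 531, 201 and 333 CPM, so that in the HFD sham pool it was not higher in the villus label. Without the block edgeR called 0 members, with 14 and 19 at an unadjusted p under 0.05, and DESeq2 called 9 S-phase and 18 G2 and M members.

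Within pools the G2 and M ratio of villus- to crypt-labelled early progenitor-like cells, scaled to the median gene, was 1.70 (1.59 to 1.80) in LFD sham, 1.22 (1.08 to 1.37) in HFD sham and 1.42 (1.33 to 1.50) in HFD VSG. The S-phase ratio was 1.03 (0.89 to 1.17), 0.01 (-0.16 to 0.18) and 0.88 (0.79 to 0.97), so that the HFD sham pool showed the G2 and M difference but not one in the S-phase sum. In stem-like cells the corresponding values were 0.11, 0.03 and 0.03 for G2 and M and -0.08, 0.44 and 0.13 for S phase. Both positive values of the HFD VSG pool rested on the scaling, with the median gene at -0.24, as the unscaled levels were lower in the villus label (2652 against 3051 CPM for G2 and M and 1389 against 1500.4 CPM for S phase).

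In stem-like cells 0 of 20 S-phase and 0 of 20 G2 and M members passed the edgeR test, with 2 and 1 at an unadjusted p under 0.05 and 0 by DESeq2, against 0.287% of all 10783 genes higher and 1.60% lower in the villus-labelled libraries. Mki67 had 704 and 696 CPM (log2 fold -0.06 ± 0.18 SE) and Top2a 619 and 588 CPM (-0.04 ± 0.18 SE). The largest fold was that of Gins2, 25.2 and 33.8 CPM (0.50 ± 0.18 SE, edgeR adjusted p = 0.243). The difference of the label effect between the classes was tested in a fit chosen after seeing the data, with the library as a block. In that fit 0 of 40 members passed the edgeR threshold, and 0.00% of all 11163 genes in either direction, while 11 S-phase and 19 G2 and M members had an unadjusted p under 0.05 (Top2a 2.08 ± 0.42 SE, edgeR adjusted p = 0.264). The classes were thus not shown to differ after adjustment.

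**Figure D5:**
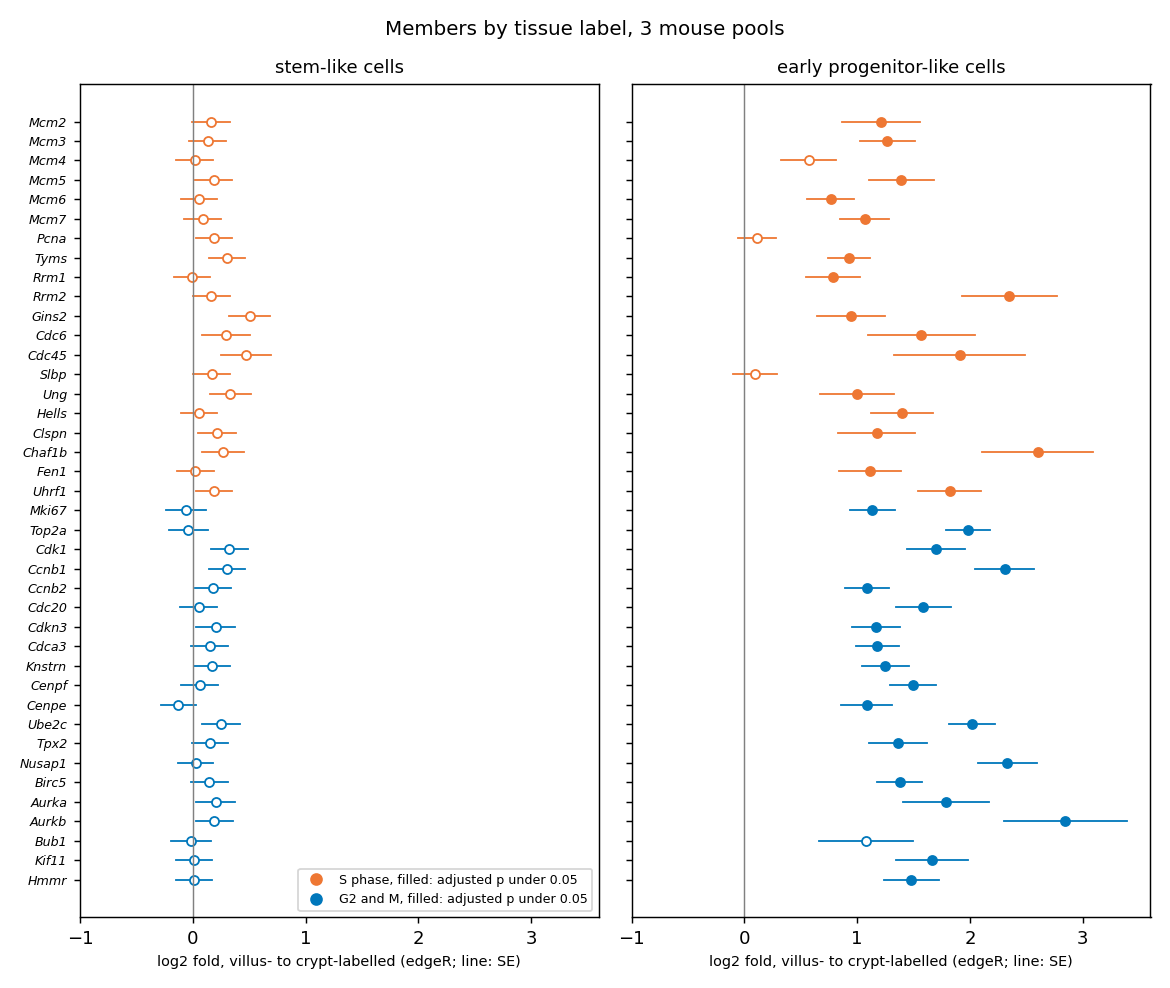
Log2 fold of each member, villus- to crypt-labelled, in stem-like (left) and early progenitor-like cells (right), by edgeR over 3 pools. Lines are standard errors and filled points have an adjusted p under 0.05. No member is filled in stem-like cells, and 17 S-phase and 19 G2 and M members are filled, all right of 0, in early progenitor-like cells.

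Outside the progenitor cells the label went with fewer members or with low levels. In goblet-like cells 1 S-phase member passed, Mcm2 at 4.99 and 12.8 CPM (log2 fold 1.33 ± 0.35 SE, edgeR adjusted p = 0.0193), and 0 G2 and M members, with 2 at an unadjusted p under 0.05 and 0 by DESeq2, against 1.99% of all genes higher and 7.65% lower. Without the LFD sham pool, 4 G2 and M members were higher in the crypt-labelled libraries, and without HFD sham 4 were higher in the villus-labelled ones. The G2 and M ratios of the pools were 2.06 in LFD sham, -0.69 in HFD sham and -0.35 in HFD VSG. In Paneth-like cells 0 of the 4 S-phase and 0 of the 2 G2 and M members with enough counts passed, with 0 and 1 at an unadjusted p under 0.05 and 0 by DESeq2, against 0.341% higher and 4.70% lower. In enterocyte-like cells 3 of 20 S-phase members (Mcm3, Tyms and Ung) and 13 of 19 G2 and M members tested were higher in the villus-labelled libraries, against 11.4% higher and 6.57% lower. Their levels were low, with Mki67 at 2.87 and 8.38 CPM and Top2a at 2.09 and 5.90 CPM, and G2 and M members had 54.0 to 523 CPM in free RNA. With free RNA subtracted, the G2 and M sum of enterocyte-like cells was 14.3, 10.0 and 15.9 CPM in the crypt-labelled and 43.6, 6.06 and 39.1 CPM in the villus-labelled libraries, so that the order turned in the HFD sham pool. Without the pool block edgeR called 0 members, with 3 and 14 at an unadjusted p under 0.05, and DESeq2 called 3 and 13 with it. Over all epithelial cells 18 S-phase and 20 G2 and M members were higher, against 24.1% higher and 23.7% lower, beside the larger share of progenitor cells in the villus-labelled libraries given above.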

How the data were processed

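RNA of single jejunal cells was measured in 6 libraries of the 10x 3′ kit. The authors aligned the reads and deposited matrices of raw counts of UMIs for every gene in every barcode, with no normalization. The submitters' processing notes name Cell Ranger 6.0.0 and mm10. The counts of the barcodes called as cells were used as deposited, and those of droplets with fewer than 100 UMIs served as free RNA. The limits on cells and the clustering settings below follow the study's methods.

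Kept cells had at least 750 genes and at most 20% mitochondrial UMIs, and those with the highest doublet scores (0.8% per 1000 barcodes) were dropped. Seurat 5.3.0 integrated the libraries (2000 variable genes, 30 components, resolution 0.4), with the members, other cell cycle genes and histone genes left out. A class could be taken when over 50% of its markers counted. A marker counted with UMIs in 10% of the cluster's cells and a mean at least 2 times the median of that gene's means over clusters. For enterocyte markers the 25 percent quantile replaced the median. Where several classes passed, the one with the highest score was taken. A cluster stayed unnamed when damaged-droplet genes were among its 10 leading genes, or when another class had more markers among them. Shallow clusters with another class's marker among them, or with none of their own, also stayed unnamed. These thresholds were set after seeing the data. The members, lists and markers were chosen with earlier results of these data known.

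Counts were summed per class and library and given as CPM. Ratios between conditions were scaled to the median of all genes that had 50 UMIs or more on average, and carry exact 95% intervals but no test, as each group is 1 pool. Intervals cover counting error only. The labels were compared with edgeR 4.0.16 in R 4.3.3, the pool of mice, which gave both libraries, as a block. In counts simulated for this comparison in progenitor cells over 11760 genes, 92 of 100 genes changed 2-fold and 100 of 100 changed 4-fold were found among 198 calls, of which 6 were unchanged genes. Other steps used Python 3.11.15, numpy 2.4.6, scipy 1.17.1 and scikit-learn 1.9.0.

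Named with values were the 6 members of each phase with the highest mean CPM in progenitor cells, the 2 highest and 2 lowest members of each ratio, and the highest and lowest gene of each other list, of which 1 is not reported here. Members named in tests and in the sorted cells were chosen after their values were seen.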

Additional observations from a re-analysis of the deposited data

How the results depend on the processing

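Of 248 alternative values of the sums, counts and shares reported, 142 stayed close to the reported ones, 106 moved and 0 reversed a called direction. Several ratios of less than 0.5 in size nevertheless changed sign, as given here and above. Of 284 values of single genes or single cell classes, 65 moved and 34 no longer passed. The cause of these moves was not tested, beyond what each setting changes by construction. With each cell thinned to 3000 UMIs, the HFD sham to LFD sham ratios were -0.21 for G2 and M in crypts and -0.39 for S phase and -0.59 for G2 and M in villi, and the HFD VSG to HFD sham ratios -0.24 for G2 and M in crypts and 0.27 and -0.033 in villi. Members beyond 0.5 in size were then 0 S-phase and 1 G2 and M in crypts and 3 S-phase in villi for the diet, and 1 S-phase and 0 G2 and M in crypts for surgery. Thinning leaves fewer members with enough UMIs, and the shares of all genes given above belong to the main setting. With free RNA subtracted at the fraction stated for each library, the diet ratios were -0.37 and -0.10 in crypts and -0.42 and -0.60 in villi, with 5 S-phase and 0 G2 and M members beyond in crypts, and the surgery ratios 0.23 and -0.33 in crypts and 0.39 and -0.011 in villi, with 2 S-phase members above and 7 G2 and M members below in crypts. At most 10% mitochondrial UMIs gave diet ratios for G2 and M of -0.15 in crypts and -0.50 in villi, with 11 S-phase and 9 G2 and M members beyond in villi, and surgery ratios of -0.33 for G2 and M in crypts, with 5 members below, and 0.32 and -0.16 in villi, with 4 and 2 members above. Without scaling, the diet ratio for G2 and M in villi was -0.70, with 12 S-phase members below, and the surgery ratios were -0.060 for G2 and M in crypts, with 1 member below, and 0.20 and -0.17 in villi, with 2 and 3 members above. With doublets kept, G2 and M ratios were -0.58 for the diet in villi and -0.045 for surgery in crypts, with 1 member below. Clustering on all variable genes gave -0.22 for G2 and M and the diet in crypts. With at least 200 UMIs, 1 S-phase member was beyond for the diet in crypts, and 3 S-phase members above and 1 G2 and M member below for surgery. Stem-like cells apart, an alternative chosen after seeing the data, gave diet ratios of -0.41 and -0.061 in crypts and 0.10 and -0.15 in villi, and surgery ratios of 0.47 for S phase in crypts and 0.16 and -0.10 in villi. Early progenitor-like cells apart gave -0.37 and -0.89 in crypts and -1.36 and -1.33 in villi for the diet, and 0.093 in crypts and 0.96 in villi for S phase and surgery. The sign of the G2 and M ratio for surgery in villi thus changed with thinning, subtraction, the mitochondrial limit, the scaling and in stem-like cells.

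For the labels, DESeq2 called 0 S-phase and 2 G2 and M members in progenitor cells, 9 S-phase members in early progenitor-like and 0 in goblet-like cells. Without the pool block, edgeR called 0 S-phase and 0 G2 and M members in progenitor cells, 0 and 0 in early progenitor-like, 0 S-phase in goblet-like and 0 and 0 in enterocyte-like cells. Without a filter on low counts, 8 G2 and M members were called in progenitor cells, 2 and 2 in goblet-like and 1 G2 and M member in Paneth-like cells. Leaving out each pool in turn gave 0 to 15 S-phase and 0 to 13 G2 and M members in progenitor cells, 6 to 17 and 15 to 20 in early progenitor-like, 0 to 2 and 0 to 4 in goblet-like, and 1 to 6 and 10 to 15 in enterocyte-like cells. The median shares of stem-like cells with UMIs were 86.7% and 73.5% at a minimum of 1 UMI, 54.3% and 53.8% at 3, and 96.9% and 85.1% at 2 without thinning. Early progenitor-like cells had 38.8% and 35.2% at 1 UMI and 65.1% and 45.2% without thinning, and enterocyte-like cells 25.4% and 6.65% at 1 UMI, 0.484% for S phase at 3, and 43.8% and 6.41% without thinning. The crypt-labelled LFD sham and HFD sham libraries had the fewest progenitor cells, 195 and 209.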

Other observations

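The clusters that took no class name held 4441 cells over the 6 libraries, with median depths of 3280 to 5635 UMIs per cell. Each of these clusters counted 15 of 15 enterocyte markers, and the name was withheld by the rules given above. Their S-phase members summed to 92.8, 83.6 and 113 CPM in the crypt-labelled libraries (LFD sham, HFD sham and HFD VSG) and to 204, 108 and 233 CPM in the villus-labelled libraries. Their G2 and M members summed to 27.0, 17.8 and 38.4 CPM, and to 254, 91.7 and 436 CPM. Each of these sums lay under the level of the same members in the free RNA of its library. With free RNA subtracted at the fractions that the study's methods state, the sums were 80.6 to 230 CPM for S phase and 8.41 to 435 CPM for G2 and M. Top2a was among the 10 leading genes of one of these clusters (1435 cells).

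Immune-like cells, the only class outside the epithelium, had S-phase levels led by Slbp (85.7 to 167 CPM over 5 libraries) and Pcna (61.2 to 113 CPM). Mki67 ranged from 6.78 to 219.6 CPM and Top2a from 11.3 to 191 CPM in these cells. After thinning, 34.0% to 44.0% of immune-like cells held at least 2 S-phase UMIs and 2.38% to 8.77% at least 2 G2 and M UMIs.

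Tuft-like cells, a rare chemosensory lineage, had G2 and M sums of 63.6 and 52.0 CPM in crypt-labelled LFD sham and HFD VSG, and of 1278, 190.5 and 736 CPM in villus-labelled LFD sham, HFD sham and HFD VSG, from 25 to 59 cells per library. Free RNA of these libraries held 84.6 and 97.8 CPM, and 461, 230 and 523 CPM. The crypt-labelled sums and that of villus-labelled HFD sham thus lay under it. With free RNA subtracted at the fractions that the study's methods state, these sums were 63.9, 52.1 and 189 CPM. After thinning, 0% to 16.0% of tuft-like cells (median 7.27%) held at least 2 G2 and M UMIs.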
